A study of Mus musculus with 15 samples.

Results

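Major urinary proteins are small secreted carriers of the lipocalin family that mouse hepatocytes release into the blood, from where they pass into the urine and carry volatile signalling molecules. Their transcription in liver is known to respond to pulses of growth hormone acting through STAT5, and to androgen, thyroid hormone and glucocorticoid, and it is usually higher in males than in females. Mup20, also called darcin, is the member known as a male signal that attracts females, whereas Mup4 and Mup5 are known chiefly from glands of the head rather than from liver. The 5 genes described here, Mup3, Mup4, Mup5, Mup20 and Mup21, were chosen by name from a table of 37991 genes, in which 42 genes carried a Mup symbol, 21 of them annotated as protein-coding and 21 as pseudogenes.

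The measurement was RNA sequencing of whole liver from female C57BL/6 mice in 3 groups of 5 animals, 1 library each. Young WT mice were 90 days old and old WT mice 600 days old, both with intact S6K1, the ribosomal protein S6 kinase encoded by Rps6kb1, and old KO mice were 600 days old and carried the S6K1 deletion in all tissues. All 3 groups came from heterozygous breeding on chow diet, animals with dermatitis or anal prolapse had been left out by the study, and there was no young KO group, so the deletion was compared at 600 days only. Total counts lay between 21801754 and 38065359 per library.

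Expression is given as CPM, the count of a gene per 1000000 counts of its library after TMM scaling. The check of the deleted gene came first. Rps6kb1 had 38.4 ± 4.21 CPM (SD, n = 5) in old WT and 17.0 ± 2.23 in old KO without overlap, and its log2 fold change was -1.17 with an SE of 0.0979 and an adjusted p of 8.54e-06 in edgeR. Xist was present in every library at 773 to 1267 CPM, and of 4 Y-linked genes Ddx3y and Kdm5d had no count in any, Eif2s3y had at most 0.0326 CPM and Uty 0.259 to 0.713 CPM. Hepatocyte markers, 10 in number, summed to 82430 to 133400 CPM in the young WT libraries, 96060 to 143800 in those of old WT and 116900 to 151900 in those of old KO, whereas 5 pancreatic acinar and 4 adipocyte markers stayed below 0.5 CPM in sum.

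One library stood apart for this family. In old WT 7, 13 of the 13 other protein-coding Mup genes that had at least 40 counts over the remaining 4 old WT libraries lay below all 4 of them, at a median of 2.01% of their median level and 11.1% at most. Mup10, for example, had 77 counts there (2.82 CPM), against 128 to 178 CPM in the other old WT libraries. The differences of the 5 genes from old WT are therefore given with and without this library. This library also differed beyond the family. Chi-square per degree of freedom was 82.1 to 128 between it and the other old WT libraries, and 19.7 to 54.0 among those 4. Its hepatocyte markers summed to 143800 CPM, the highest value among the old WT libraries. Its sums were also the highest of old WT for lymphocyte (12.4 CPM), stellate and fibroblast (338), bile duct (105.9) and red blood cell (133) markers. Those of macrophage (290.5) and endothelial (113.5) markers were not.

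The 5 genes lie on the minus strand of chromosome 4 in a cluster of 41 Mup genes and pseudogenes that spans 1842.2 kb (build NCBIM37, which corresponds to mm9). Mup4 (ENSMUSG00000041333, chr4:59969676-59973582) is the first protein-coding gene of the cluster by coordinate. Mup5 (ENSMUSG00000058523, chr4:61492353-61496267), Mup20 (chr4:61711268-61715192), Mup3 (chr4:61744510-61748376) and Mup21 (chr4:61808966-61811897) are the last 4 in that order. Their exons sum to 922, 925, 928, 969 and 677 bases for Mup4, Mup5, Mup20, Mup3 and Mup21, and none of these exons overlapped an exon of another annotated gene.

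The sequences at the gene starts are shown because these genes, whose levels in liver differed greatly, are close copies there. RefSeq (build GRCm38.p6) gave a promoter for 3 of the 5 genes, Mup3, Mup4 and Mup21. The last 160 bases before the RefSeq start are printed 5′ to 3′ on the gene's strand, with the sequence TATATAA in capitals. They cover chr4:62087318-62087477 for Mup3, chr4:59960668-59960827 for Mup4 and chr4:62150842-62151001 for Mup21 in that build.
Mup3: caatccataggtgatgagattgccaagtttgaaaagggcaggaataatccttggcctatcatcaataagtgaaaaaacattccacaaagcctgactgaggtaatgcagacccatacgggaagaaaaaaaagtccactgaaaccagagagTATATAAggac
Mup4: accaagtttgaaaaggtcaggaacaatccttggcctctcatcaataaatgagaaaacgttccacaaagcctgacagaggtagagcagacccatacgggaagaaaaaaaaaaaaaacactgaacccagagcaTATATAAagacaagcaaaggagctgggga
Mup21: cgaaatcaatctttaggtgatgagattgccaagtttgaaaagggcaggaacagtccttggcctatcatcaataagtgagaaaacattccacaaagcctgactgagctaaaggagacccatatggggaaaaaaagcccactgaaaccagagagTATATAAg
In an alignment of the whole promoter entries, Mup3 and Mup21 were 93.9% identical over 294 aligned bases, Mup3 and Mup4 89.2% over 279, and Mup4 and Mup21 86.1% over 273. The TATATAA run ended 5 bases before the RefSeq start in Mup3, 23 bases before it in Mup4 and 2 bases before it in Mup21. This run was present in 13 of 14 Mup promoters and in 3.24% of all 32851 promoters of the same length. Other motifs searched on both strands were TTCNNNGAA (the STAT5 pattern, in 8.3% of all promoters), the palindrome of the glucocorticoid receptor (0.475%) and TTGCNNAA (a C/EBP pattern, 10.8%), and 0 of the 14 Mup promoters held any of them in this window.

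The likeness continues in the transcripts, and it sets how far reads can be placed. Mup3 and Mup21 were 96.3% identical over 677 aligned bases and Mup4 and Mup5 92.8% over 919 bases, and each of these genes was the nearest relative of its partner. Reads were 50 bases long, so each transcript was cut into every window of 50 bases and each window was looked for elsewhere in the cluster. The share of windows found nowhere else was 87.4% for Mup4, 84.5% for Mup3, 81.8% for Mup5 and 80.7% for Mup21, but 19.7% for Mup20, of whose 879 windows 422 were shared with the pseudogene Mup-ps19. Among the other 16 protein-coding Mup genes the share lay between 0% and 21.9%, with the exception of Mup6 at 96.0%. Most of the sequence of Mup3, Mup4, Mup5 and Mup21 is thus their own, and most of that of Mup20 is not. How the counting treated reads with several placements is not given in the sources used here. Mup21 shared 112 of its 628 windows with Mup3 and had a mean of 3.86 CPM in young WT, against 1699 for Mup3. Mup-ps19, with 422 windows in common with Mup20, had 0.0898 CPM in young WT, against 28.5 for Mup20. Whether counts of Mup20 include reads from shared sequence was not tested.

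**Figure D1:**
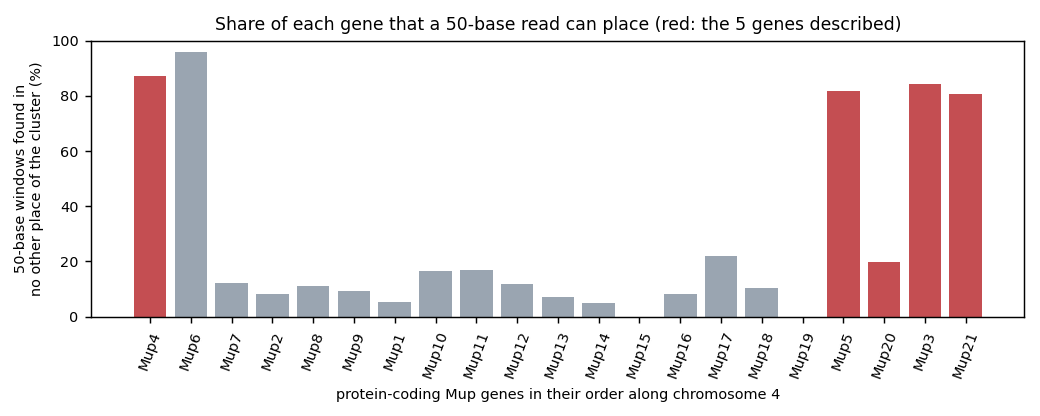
Percent of 50-base windows of each protein-coding Mup transcript that occur at no other place in the cluster, with genes in their order along chromosome 4 and the 5 genes described here in red. Mup3, Mup4, Mup5 and Mup21 stand above 80% and Mup20 at 19.7%, among the range of most other Mup genes.

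Per kilobase of exon, the mean level in young WT was 1753 CPM for Mup3, 30.7 for Mup20, 5.71 for Mup21, 0.325 for Mup5 and 0.268 for Mup4. The order was the same in old WT, where these means were 371, 15.3, 2.18, 0.137 and 0.0551 CPM per kilobase, and in old KO, where they were 719, 19.3, 2.89, 0.187 and 0.137. Mup3 thus stood far above the others in every group. Divided by own windows only, a scale that holds if reads with several placements were left out and that raises Mup20, the level per 1000 such windows in young WT was 2080 CPM (1231 to 2890 over the 5 libraries) for Mup3 and 165 CPM (120 to 235) for Mup20. On this scale the ranges of Mup3 and Mup20 overlapped in both old groups, at 120 to 757 and 37.6 to 131.5 CPM per 1000 own windows in old WT and at 256 to 1302 and 27.1 to 299 in old KO. The overlap was between different libraries, the lowest Mup3 being in old WT 7 and old KO 1 and the highest Mup20 in old WT 5 and old KO 5. Within every library Mup3 was above Mup20 on this scale. Mup5 and Mup4, the neighbours at the bottom, overlapped in all 3 groups on this scale, at 0.227 to 0.681 and 0.242 to 0.474 CPM per 1000 own windows in young WT.

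In every young WT and old KO library, most of the family's counts came from these 5 genes. This is a share of counts, not of transcripts. If reads with several placements were left out, it depends on how many own windows a gene has. Mup3 had 817 own windows and a mean of 1699 CPM in young WT, and Mup10 had 221 and 515.5 CPM. Of all counts on Mup genes they held 59.9% to 69.7% in the young WT libraries, 38.6% to 93.4% in those of old WT and 50.2% to 76.1% in those of old KO, most of it from Mup3. Mup genes summed over the cluster took 0.182% to 0.329% of a young WT library, 0.0123% to 0.114% of an old WT library and 0.0437% to 0.137% of an old KO library, so no old library reached the lowest young one.

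The first comparison asked how these genes differ between 90 and 600 days in wild-type liver. Mup3 and Mup21 were lower in old WT and passed the test across all genes, Mup4, which was too low for that test, was lower in every old WT library than in any young one, and Mup20 and Mup5 had lower means but overlapping libraries. Of all 14258 genes tested, 2685 (18.8%) passed at an adjusted p under 0.05, 1270 of them (8.91% of those tested) in the lower and 1415 in the higher direction. In bulk liver, fewer cells that express a gene and less RNA per cell cannot be told apart. Of the 10 hepatocyte markers, Cps1 (log2 fold change -1.27) and Apoa1 (-0.69) fell with age and Trf (0.62) rose. Lymphocyte markers summed to 2.66 to 5.36 CPM in young and 7.19 to 12.4 in old WT, with 3 of 6 called higher, and endothelial markers to 139.9 to 254 and 104 to 179 CPM, with 2 of 5 called lower (2 and 1 without old WT 7). None of these markers was at 0, and the part of these shifts in the Mup values was not tested.

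Mup3, the most abundant of the 5, had 1838, 1677, 1614, 2361 and 1006 CPM in young WT libraries 1, 2, 3, 4 and 6. It had 515, 289, 619, 98.1 and 278 CPM in old WT 1, 4, 5, 7 and 10. Every old WT library lay below every young WT library, and old WT 7 was the lowest. Mean levels were 1699 ± 486 CPM in young and 360 ± 207 in old WT (SD, n = 5 each). The log2 difference was -2.24 (SE 0.442, edgeR adjusted p = 0.00348), and the exact 2-sided permutation p was 0.00794, the smallest that 5 against 5 can give. Without old WT 7 the log2 fold change was -1.99 (SE 0.388, adjusted p = 0.00316) and the mean of the remaining 4 libraries was 425 ± 169 CPM.

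Mup21, the last gene of the cluster and the closest relative of Mup3, had 3.66, 2.84, 4.14, 3.68 and 5.001 CPM in young WT 1, 2, 3, 4 and 6, from 93 to 139 counts a library. It had 1.25, 0.640, 1.46, 2.09 and 1.95 CPM in old WT 1, 4, 5, 7 and 10, from 18 to 57 counts. The groups did not overlap, and here old WT 7 was the highest old WT library, not the lowest. The log2 fold change was -1.38 (SE 0.2804, edgeR adjusted p = 0.00406, exact permutation p = 0.00794) and -1.53 (SE 0.296, adjusted p = 0.00306) without old WT 7. Non-overlapping ranges, as Mup3 and Mup21 had, were found for 11.4% of the genes tested. Both genes cleared the count filter in every group, since their lowest libraries held 2676 and 18 counts.

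Mup20, the darcin gene, had 25.7, 40.7, 20.7, 33.8 and 21.8 CPM in young WT 1, 2, 3, 4 and 6. It had 19.4, 8.93, 22.7, 13.4 and 6.51 CPM in old WT 1, 4, 5, 7 and 10. All but old WT 5 were below the lowest young WT library, and old WT 7 lay inside the old WT range. The means were 28.5 ± 8.53 and 14.2 ± 6.86 CPM (SD, n = 5 each). The log2 fold change of -1.004 (SE 0.501) missed the threshold in the fit of all 15 libraries (edgeR adjusted p = 0.174, exact permutation p = 0.0238 for this gene alone), and without old WT 7 it was -0.97 (adjusted p = 0.231). The adjusted p was 0.0452 when old KO 5 was left out of the fit and 0.0461 when only the 10 wild-type libraries were fitted, with log2 fold changes of -0.99 and -1.015. Old KO 5, which had the highest Mup20 level of all libraries, enters the estimate of the spread but not this difference.

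Mup4 and Mup5 were at the edge of detection, with 39 and 48 counts in all over the 5 young WT libraries. Mup4 had 7, 7, 8, 12 and 5 counts in young WT 1, 2, 3, 4 and 6 and 2, 1, 4, 0 and 1 in old WT 1, 4, 5, 7 and 10. In CPM every old WT library (0 to 0.119) was below every young WT library (0.184 to 0.362), and the count of 0 in old WT 7 allows up to 0.11 CPM. The difference of mean log2(CPM + 0.1) was -1.23 (exact permutation p = 0.00794, not adjusted for other genes), and -1.09 (exact p = 0.00794) without old WT 7. On this scale the change of such low genes is understated.

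Mup5 had 10, 16, 5, 11 and 6 counts in young WT and 3, 6, 6, 0 and 4 in old WT, in the same library order. The CPM ranges, 0.163 to 0.488 and 0 to 0.213, overlapped, and old WT 7 was again at 0. The difference of mean log2(CPM + 0.1) was -0.88 (exact permutation p = 0.0238, not adjusted), and -0.60 (exact p = 0.0476) without old WT 7. This call was not firm, since the exact p was 0.0556 when any of young WT 1, 2, 4 or 6 was left out, and in an edgeR fit with no count filter the adjusted p over all genes was 0.139.

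**Figure D2:**
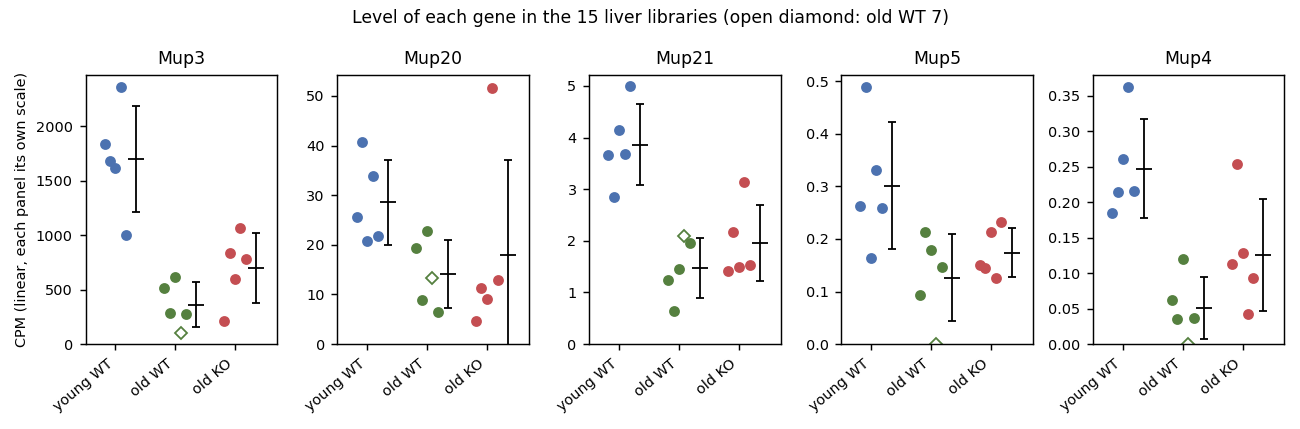
CPM of each gene (linear axis from 0, a scale of its own per panel) in every library of the 3 groups, with the group mean and SD beside the points and old WT 7 as an open diamond. Old WT libraries lie below all young WT libraries for Mup3, Mup21 and Mup4, and 1 old KO library stands at 51.6 CPM for Mup20.

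In old WT 7 the levels of the protein-coding genes differed by position in the cluster. Taking the protein-coding genes in their order, every gene from Mup4 to Mup5 with a median above 0 was at 0% to 11.1% of the median of the other 4 old WT libraries in old WT 7. Mup20, Mup3 and Mup21, the last 3, stood at 94.3%, 24.4% and 154%, Mup3 still below all of the other 4. For Mup4, Mup5 and Mup19 the 0% rests on 8, 19 and 16 counts over the other 4 libraries. Pseudogenes did not all follow this order. Mup-ps13, between Mup16 and Mup17, had 20 counts (0.733 CPM) in old WT 7, against a mean of 1.33 ± 0.410 CPM in old WT. Mup-ps18, next to Mup5, had 0 counts there. Mup6, 96.0% of whose windows are its own, was at 6.37% with 3 counts, so the low counts were not limited to genes that share their sequence. The ratio within the library moved as well, with a log2 ratio of Mup10 to Mup3 of -5.12 in old WT 7 and of -2.30 to -0.73 in the other 14 libraries. Mup3 made up 80.7% of Mup counts there and Mup20 11.01%, against 37.5% to 72.3% and 0.823% to 3.51% elsewhere.

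**Figure D3:**
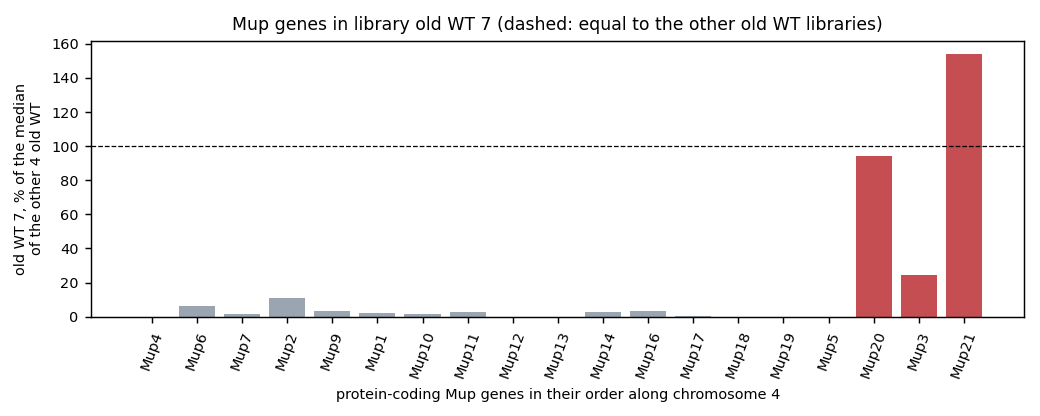
Level of each protein-coding Mup gene in library old WT 7 as a percentage of the median of the other 4 old WT libraries, in the order of the genes along chromosome 4, with the genes described here in red (Mup8 and Mup15, with a median of 0, are left out). The last 3 genes reach 94.3%, 24.4% and 154%, and all others are at 11.1% or less.

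Beside these 5, 13 of the other 16 protein-coding Mup genes could be tested with age. Mup7 (log2 fold change -2.04), Mup10 (-2.01), Mup11 (-3.29) and Mup14 (-1.74) fell and 0 rose in the edgeR test (8 of 13 had an unadjusted p under 0.05), and 12 of 13 fold changes were negative, with a median of -1.31 against 0.01 over all genes tested. Without old WT 7, 14 were tested and 6 fell, Mup1, Mup7, Mup10, Mup11, Mup14 and Mup19. The pseudogene Mup-ps18, next to Mup5 and with 88.2% own windows, fell from 1.495 ± 0.640 to 0.420 ± 0.276 CPM (adjusted p = 0.0174). Mup2 and Mup12 had log2 fold changes of 0.16 and -0.03 with old WT 7 and of 0.45 and 0.29 without it, and passed in neither fit.

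The second comparison asked how the deletion of S6K1 differs from wild type at 600 days. None of the 3 genes tested passed, whereas 0.533% of all genes did, and the ranges of old KO and old WT overlapped for all 5 (3.2% of the genes tested had ranges that did not). Of the 3 genes tested, 1 (Mup3) had an unadjusted p under 0.05, and neither DESeq2 nor limma voom called any of them.

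Mup3 had 209, 834, 595, 1063 and 783 CPM in old KO 1, 2, 4, 5 and 6. Of these, 3 lay above every old WT library, and old KO 1 lay below all old WT libraries but old WT 7. The mean of 697 ± 320 CPM was 1.94-fold that of old WT, with a log2 fold change of 0.95 (SE 0.426, unadjusted p = 0.0396, edgeR adjusted p = 0.399, exact permutation p = 0.135). Without old WT 7 the fold was 1.64 and the log2 fold change 0.71 (SE 0.371, adjusted p = 0.490).

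Mup20 had 4.68, 11.2, 9.04, 51.6 and 13.0 CPM in old KO 1, 2, 4, 5 and 6. Old KO 5 was higher than any other of the 15 libraries, while the other 4 lay within or below the old WT range of 6.51 to 22.7 CPM. The log2 difference, 0.33 (SE 0.503, edgeR adjusted p = 0.867), rested on that library and was -0.60 (SE 0.353, adjusted p = 0.653) without it. Leaving out old WT 7 instead gave 0.30 (adjusted p = 0.891).

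Mup21 had 1.42, 2.18, 1.499, 3.14 and 1.53 CPM in old KO, with old KO 5 highest here too. The difference from old WT was 0.41 on the log2 scale (SE 0.290, edgeR adjusted p = 0.633), and 0.56 (adjusted p = 0.514) without old WT 7. Mup4 had 3, 7, 3, 1 and 2 counts and Mup5 4, 4, 5, 3 and 5. Their differences of mean log2(CPM + 0.1) from old WT were 0.57 (exact permutation p = 0.0794) and 0.36 (exact p = 0.302). Without old WT 7, whose count was 0 for both, they were 0.43 (exact p = 0.159) and 0.085 (exact p = 0.619). For Mup4 the exact p was 0.0397 without old KO 5 and 0.0317 without old WT 5. All 8 macrophage markers had negative fold changes in this comparison and 4 of them passed (2 without old WT 7). Their sums were 184 to 499 CPM in the old WT libraries and 115 to 161 in those of old KO, with none at 0. All 10 hepatocyte markers had positive fold changes (median log2 fold change 0.20, against 0.0008 over all genes tested). All 6 lymphocyte markers were negative (median -0.72) and all 3 red blood cell markers positive (median 1.14). Endothelial, stellate and bile duct markers went both ways. Outside the macrophage markers 0 passed by edgeR, though 2 lymphocyte and 2 red blood cell markers had an unadjusted p under 0.05. The part of these shifts in the Mup values was not tested.

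In the other 13 tested protein-coding Mup genes, 10 fold changes were positive and 0 passed by edgeR, DESeq2 or limma voom (1 had an unadjusted p under 0.05), with a median of 0.29. This median was 0.04 over 14 genes without old WT 7. The gene nearest to the threshold was Mup16, at 20.5 CPM in old KO and 7.99 in old WT on average (log2 fold change 1.35, SE 0.556, adjusted p = 0.343).

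The third comparison set old KO against young WT, in which age and genotype both differ and which shares its libraries with the other 2. Here 23.3% of all genes tested passed, 11.3% in the lower direction, and 13.9% had ranges that did not overlap. Mup3 and Mup21 were lower in old KO by the test, with 4 of 5 old KO libraries below every young WT library for each, so that their ranges overlapped by 1 library.

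For Mup3 the log2 fold change was -1.29 (SE 0.429, edgeR adjusted p = 0.0400, exact permutation p = 0.0159). This call was near the threshold, since leaving out any of old KO 1, 2, 4 or 6 or young WT 1, 2, 3 or 4 gave adjusted p-values of 0.0547 to 0.0863. That of Mup21 was -0.98 (SE 0.277, adjusted p = 0.0193), with an adjusted p of 0.0519 without old KO 4. For Mup20 it was -0.68 (SE 0.499, adjusted p = 0.346) with all libraries and -1.59 (SE 0.358, adjusted p = 0.00787) without old KO 5, and so it passed only without that library among the 15 left out in turn. Mup4 and Mup5 differed by -0.66 (exact permutation p = 0.0317) and -0.52 (exact p = 0.0397) in mean log2(CPM + 0.1), and the edgeR fit with no filter gave adjusted p-values of 0.276 and 0.329. Of the other 13 tested protein-coding Mup genes 3 passed, all lower, Mup7, Mup11 and Mup13, and 7 of 14 without old WT 7.

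**Figure D4:**
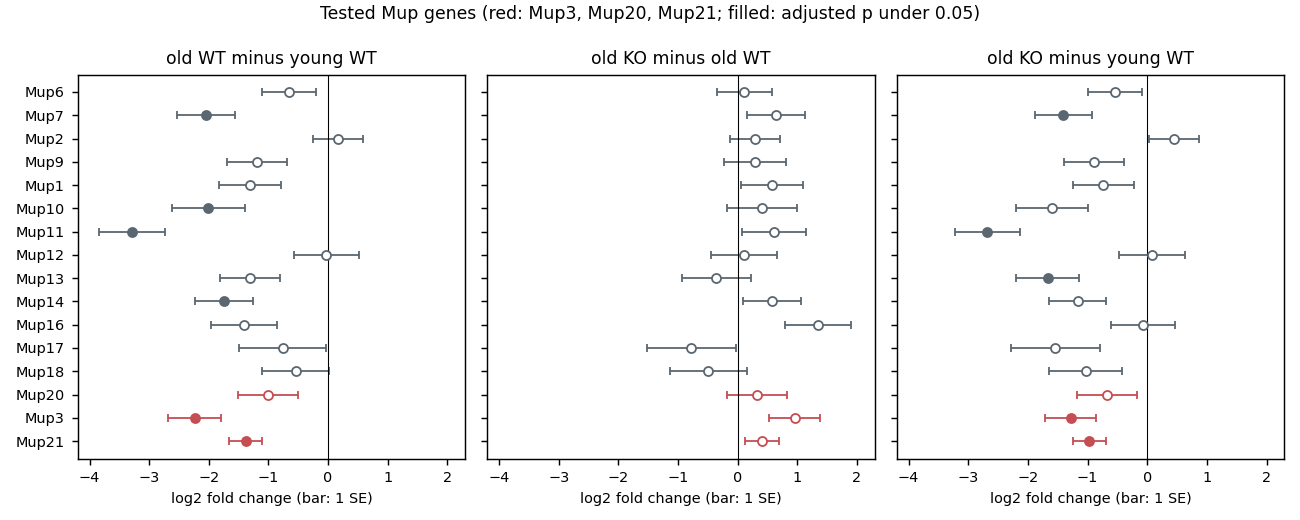
Log2 fold changes with 1 SE of the 16 tested protein-coding Mup genes in 3 comparisons, in their order along chromosome 4, with Mup3, Mup20 and Mup21 in red and filled points for an edgeR adjusted p under 0.05. With age 6 points are filled and lower, in the genotype comparison 0 are filled, and in old KO against young WT 5 are filled and lower.

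Across the 15 libraries Mup3 moved more closely with Mup20 than with Mup21. Pearson's r of log2 CPM was 0.71 between Mup3 and Mup20, 0.63 between Mup3 and Mup21 and 0.60 between Mup20 and Mup21, values that the difference between young and old libraries enters. After subtracting group means they were 0.62, -0.02 and 0.34. Without old WT 7 they were 0.81, 0.30 and 0.36 after subtracting group means, and 0.82, 0.78 and 0.60 before it. The nearest relatives in sequence were thus not the closest pair in level. Before group means were subtracted the gap was small, and differences between these r values were not tested. Low counts of Mup21, down to 18 in a library, limit its r.

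The genes outside the family whose log2 CPM was most like that of Mup3, of 12111 with a mean of at least 1 CPM, were Ces3a, a carboxylesterase of hepatocytes, Cyp2d9, a male-biased steroid hydroxylase, and Pprc1, a coactivator related to PGC-1. Their r was 0.94, 0.93 and 0.91 (0.92, 0.80 and 0.73 after subtracting group means). Ces3a had means of 416, 190 and 293 CPM in young WT, old WT and old KO, the same order as Mup3, and was low in old WT 7 at 56.8 CPM. Closest to Mup20 were C8a, a chain of complement component C8, Plekhb2 and Gimap1, with r of 0.88, 0.82 and 0.80. Closest to Mup21 were Ccdc30, Ociad1 and Csnk2a1, with r of 0.89, 0.85 and 0.85. These are descriptions over libraries that share groups, ranked among all genes.

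Since the family is known to follow the sex-dependent pattern of growth hormone, lists of genes with a male or female bias in mouse liver were set beside it. All animals were female. Of 18 male-biased genes 12 could be tested, and with age 5 fell and 0 rose by edgeR (1 higher at an unadjusted p under 0.05, 0 by DESeq2 or limma voom), with a median log2 fold change of -0.70 against 0.01 over all genes tested. Without old WT 7, 5 of 13 fell and the median was -0.88. Cyp2d9 fell from 45.2 ± 23.9 to 3.56 ± 1.88 CPM, Susd4 from 4.70 ± 2.19 to 0.547 ± 0.183, Egfr, the receptor of epidermal growth factor, from 198 ± 54.4 to 63.7 ± 26.2, and the organic anion transporter gene Slco1a1 from 64.2 ± 25.2 to 18.3 ± 11.9 (adjusted p = 0.000342 to 0.0124). Their direction with age was that of Mup3 and Mup21. Elovl3, a fatty acid elongase gene, had 0.366 CPM in old WT 7, the lowest of all 15 libraries. Other genes of the list went the other way there, and Egfr (107 CPM) and Slco1a1 (37.6 CPM) had their highest old WT value in that library. Summed over the list, the level in old WT 7 was 361 CPM, the lowest of the old WT libraries, which reached 412.5 CPM.

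Of 23 female-biased genes, all tested, 11 rose and 3 fell with age, with a median of 0.88. Over all 14258 genes tested, 1415 rose and 1270 fell. Without old WT 7, 12 of the 23 rose and 5 fell, with a median of 0.89. Hao2, a peroxisomal oxidase gene, rose from 3.55 ± 3.93 to 73.1 ± 26.1 CPM and Slc22a26 from 145 ± 26.3 to 255 ± 33.0, whereas the sulfotransferase gene Sult3a1 fell from 168 ± 73.1 to 6.03 ± 3.80 and Cyp2c40 from 129 ± 20.6 to 79.5 ± 8.89. In the genotype comparison 0 of the 12 male-biased genes passed by edgeR or limma voom and 2 by DESeq2, 1 in each direction, while 4 higher and 2 lower had an unadjusted p under 0.05. There 2 of the 23 female-biased genes passed, both higher in old KO, namely Sult3a1 (48.3 ± 26.7 CPM, log2 fold change 2.999) and Cyp2c40 (125 ± 12.6 CPM, 0.65).

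No tested gene that carries the hormone signals passed as lower in old liver by edgeR. Of 12 growth hormone signalling genes 11 were tested, and with age 3 rose and 0 fell by edgeR (0 also at an unadjusted p under 0.05, by DESeq2 or by limma voom), namely Ghr, the growth hormone receptor (302 ± 92.9 to 530 ± 79.8 CPM), Igfals (59.9 ± 13.3 to 94.7 ± 14.8) and Stat5a (17.3 ± 2.18 to 24.3 ± 6.33). Of 15 other regulators of Mup transcription 14 were tested, and 5 rose and 0 fell by edgeR (2 lower at an unadjusted p under 0.05, 1 by DESeq2, 0 by limma voom), among the 5 the receptors of estrogen (Esr1, 32.4 ± 10.7 to 52.6 ± 6.996 CPM), thyroid hormone (Thrb, 39.1 ± 10.3 to 53.4 ± 6.31) and glucocorticoid (Nr3c1, 88.1 ± 14.4 to 110 ± 12.3). Of these 14 regulators 4 rose without old WT 7, and again 3 of the 11 signalling genes. With all libraries, 1415 of the 14258 genes tested were called higher with age. Zhx2, the regulator not tested, was listed at 0 in every library, and whether this reflects its expression or the counting was not tested. In the genotype comparison 0 of the 11 and 0 of the 14 passed by edgeR, DESeq2 or limma voom, and 1 gene in each list had an unadjusted p under 0.05.

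**Figure D5:**
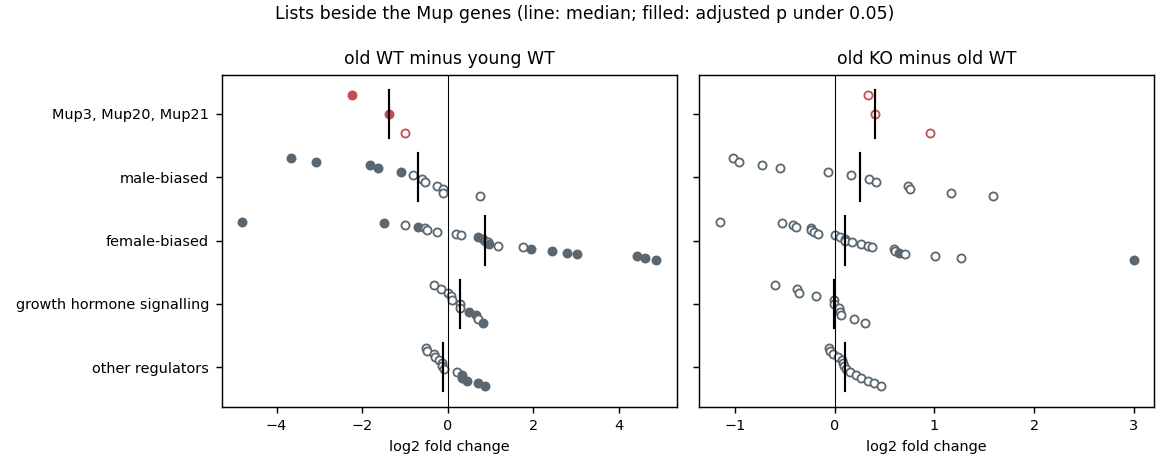
Log2 fold changes of Mup3, Mup20 and Mup21 (red) and of 4 lists of genes (grey), each point 1 gene and each line the median, for age and for genotype, with filled points for an edgeR adjusted p under 0.05. With age the male-biased genes have a median of -0.70 and the female-biased genes of 0.88, and in the genotype panel 2 female-biased genes are filled.

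Other members of the lipocalin family in liver did not follow the Mup genes as a group. Of 16 other lipocalin entries, of which Lcn13 and Obp2a were the same gene, 9 were tested. With age 4 rose and 2 fell (3 and 2 without old WT 7). The acute phase gene Orm2 rose from 7.15 ± 2.27 to 27.7 ± 20.7 CPM and C8g, the lipocalin chain of complement C8, from 198 ± 19.8 to 268 ± 45.3. Rbp4, the carrier of retinol, fell from 3395 ± 608 to 2404 ± 180 CPM and Ptgds from 2.55 ± 2.01 to 0.649 ± 0.184. In the genotype comparison 0 of the 9 passed by edgeR, DESeq2 or limma voom, and 1 had an unadjusted p under 0.05.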

How the data were processed

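The authors prepared stranded poly(A) libraries from liver RNA, sequenced single-end reads of 50 bases, mapped them to mm9 with TopHat2 2.0.11 and used HTSeq for gene counts. Raw counts were deposited, without normalization or pooling. The annotation, the strand setting and the handling of reads with several placements are not given in the sources used here. The study used DESeq2 1.18.1.

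Groups and replicate numbers came from the sample titles. Within groups, all 30 pairs of libraries differed by more than sampling noise (chi-square per degree of freedom 19.7 to 128). Symbols and positions were taken from GENCODE M1 on NCBIM37, in which 786 of 37991 genes had no position. Counts were scaled by TMM and filtered with filterByExpr in edgeR 4.0.16 (R 4.3.3), and 14258 genes were tested by the quasi-likelihood test over all 15 libraries with Benjamini-Hochberg adjustment (threshold 0.05). On simulated counts the script recovered most of the genes it had changed. Mup4 and Mup5 did not pass the filter and were compared by exact 2-sided permutation on log2(CPM + 0.1), with 252 assignments and a smallest p of 0.00794. Counts per gene limit the precision of both, and a floor of 3 counts covers counting error only. DESeq2 1.42.0, limma voom (limma 3.58.1), other scalings, other filters, the contrast's 10 libraries alone, a replicate block and leaving out each library were alternatives.

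The members and lists were chosen with earlier results of these data known. All 141 list entries matched a gene, Lcn13 and Obp2a the same gene. Named were the 5 members, other Mup genes, for each tested member the 3 genes with the highest Pearson r, and up to 4 genes a list with the smallest adjusted p, of which 1 gene is not reported here. Other genes (Elovl3, Zhx2) were named after their values were seen. Sequences came from RefSeq (GRCm38.p6 promoters) and NCBIM37.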

Additional observations from a re-analysis of the deposited data

Results flagged for a closer look

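In groups of 5, a library was singled out where its gap to the nearest other library exceeded 0.71 of the range of the group (Dixon's test), which chance does in about 1 of 20 groups. Of 30 groups examined, 2 held such a library. Mup20 had 51.6 CPM in old KO 5, against 4.68 to 13.0 in the other 4 old KO libraries. Mup10 had 2.82 CPM in old WT 7, against 128 to 178 in the other 4 old WT libraries.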

How the results depend on the processing

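Of 109 values of the 5 genes under settings that kept all libraries of the contrast, 99 kept their direction and their side of the threshold, and of 225 with 1 library left out 197 did. On these measures the calls of Mup3, Mup21 and Mup4 with age held in every setting made. The log2 difference of Mup3 ranged from -2.53 to -1.99 and that of Mup21 from -1.53 to -1.19 with 1 library left out. Under DESeq2 and with no count filter, Mup4 in old KO against young WT (-0.94 and -0.93), Mup5 with age (-1.25 and -1.21) and Mup5 in old KO against young WT (-0.81 and -0.80) did not pass. With only the 10 libraries of the contrast Mup20 passed with age (-1.015). Mup20 in the genotype comparison changed sign under limma voom (-0.0762) and without old KO 5 (-0.60). With 1 library left out, the log2 differences that crossed the threshold ranged, in old KO against young WT, from -1.49 to -1.05 for Mup3, -0.84 to -0.51 for Mup4, -0.66 to -0.37 for Mup5, -1.59 to -0.43 for Mup20 and -1.21 to -0.87 for Mup21. With age they ranged from -1.01 to -0.60 for Mup5 and -1.24 to -0.82 for Mup20, and in the genotype comparison from 0.39 to 0.72 for Mup4. Mup20 in the genotype comparison ranged from -0.60 to 0.57 and passed in none of these fits. The genes changed over the whole table numbered 1748 (without young WT 1) to 3284 with age, against 2685 in all libraries. In the genotype comparison they numbered 9 to 108, against 76, and under 51 without old KO 2, 4, 5 or 6, old WT 1, 4, 7 or 10 or young WT 4. DESeq2 gave 309 and limma voom 23. The cause of these shifts was not tested.

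With the replicate block the counts were 899 with age and 6 in the genotype comparison, and Mup20 changed sign in the genotype comparison (-0.18) and passed in old KO against young WT (-1.49). The numbers do not pair the animals, since deviations of 9 same-numbered pairs correlated at -0.153 to 0.077 and those of 66 other pairs at -0.267 to 0.355. Mup4 and Mup5 were not fitted with the block, limma voom, the stricter filter or the 10 libraries, and DESeq2 gave no adjusted p for them in the genotype comparison. Their depth, 0 to 16 counts a library, limits both.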
